A study of Mus musculus with 2 samples.

Results

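Mir17-92 is a polycistron, a single primary transcript that carries 6 microRNA (miRNA) hairpins. Its members, Mir17, Mir18, Mir19a, Mir20a, Mir19b-1 and Mir92-1, were taken by name as 6 of the 2202 annotated miRNA genes in small RNA libraries of C2C12 myotubes. C2C12 is a mouse myoblast line, derived from C3H thigh muscle, whose cells fuse into myotubes in culture. The series holds 1 group of 2 libraries, biological replicates 1 and 2, each from its own biosample of cells differentiated for 72 h. The labels name no treatment, no genotype change and no undifferentiated control, so values were set beside each other between genes and between the 2 libraries.

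Drosha and Dicer cut each hairpin into short arms, and the arm that is loaded into Argonaute, here called the guide arm, pairs with target mRNAs through its seed, bases 2 to 8 from the 5′ end. The Mir17-92 transcript is driven by Myc and E2f factors and is known for supporting proliferation and survival in tumours, developing lung, B cells and mouse heart muscle. Its members fall into families by seed. The miR-17 family (Mir17, Mir20a) is known to repress the cell cycle genes E2F1, in human cells, and Cdkn1a. The miR-18 family is known to repress Ctgf. The miR-92 family is known to restrain vessel growth.

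The guide arms below, from RefSeq on GRCm38.p6, are shown because the members differ from each other, and from genes of the paralog clusters, by few bases. Capitals mark the seed.
Mir17: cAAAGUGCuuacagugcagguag
Mir20a: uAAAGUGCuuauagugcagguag
Mir18: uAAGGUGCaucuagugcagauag
Mir19a: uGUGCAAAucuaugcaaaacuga
Mir19b-1: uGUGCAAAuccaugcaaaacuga
Mir92-1: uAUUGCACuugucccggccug
Mir106a: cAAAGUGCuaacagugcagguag
Mir20b: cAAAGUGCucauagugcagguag
Mir106b: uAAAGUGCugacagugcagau
Mir93: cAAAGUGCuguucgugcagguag
Mir25: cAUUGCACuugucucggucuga

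With positions counted from 1 at the 5′ end, Mir20a differed from Mir17 at 2 of 23 bases (C1U and C12U, the base of Mir17 first). Mir19b-1 differed from Mir19a at 1 base (U11C), and Mir106a differed from Mir17 at 1 base (U10A). The guide arm of Mir19b-1 is the same in Mir19b-2, and that of Mir92-1 is the same in Mir92-2. Both copies lie in the Mir106a-363 cluster on chromosome X. The hairpins of Mir19b-1 and Mir19b-2 share an exact run of 25 bases, and those of Mir92-1 and Mir92-2 a run of 22 bases. Reads within such a run match both genes. The tables keep multimapping reads apart from the genes, so the levels of Mir19b-1 and Mir92-1 leave them out and are uncertain. Mir17, Mir18, Mir19a and Mir20a shared no run longer than 17 bases with any of the other 2201 annotated hairpins. Their guide arms occur in no other annotated hairpin.

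On mm10, the assembly of the deposited files, the 6 hairpins fill 536 of the 836 bases at chr14:115043671-115044506 on the plus strand. All 6 lie within an exon of the only annotated transcript of Mir17hg, a long non-coding RNA gene at chr14:115042879-115046727. Mir17 lies first (115043671 to 115043754), followed by Mir18 (115043851 to 115043946), Mir19a (115044000 to 115044081), Mir20a (115044157 to 115044263), Mir19b-1 (115044305 to 115044391) and Mir92-1 (115044427 to 115044506). Gaps between neighbours ran from 35 to 96 bases. The hairpins of Mir17 and Mir20a are given because these genes share a seed and moved unlike each other between the libraries, and those of Mir92-1 and Mir92-2 because they share a guide arm. Capitals mark the guide arm.
Mir17: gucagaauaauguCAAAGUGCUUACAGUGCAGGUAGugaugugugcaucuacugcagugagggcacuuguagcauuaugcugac
Mir20a: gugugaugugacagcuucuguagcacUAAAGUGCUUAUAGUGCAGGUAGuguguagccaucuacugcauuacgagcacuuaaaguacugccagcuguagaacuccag
Mir92-1: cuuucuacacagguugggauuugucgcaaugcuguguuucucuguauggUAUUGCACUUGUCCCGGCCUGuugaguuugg
Mir92-2: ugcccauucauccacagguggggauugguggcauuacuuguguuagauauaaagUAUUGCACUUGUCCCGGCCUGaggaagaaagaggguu

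Replicate 1 had 7581366 reads on the sense strand of miRNA genes and replicate 2 had 9865298. Levels are CPM, a gene's reads scaled to a common total of these reads in each library. All guide arms were 21 to 23 bases long, so no scaling by length was made, and the counts are per hairpin and do not separate its arms. A count of 3 reads, the floor used here, was worth 0.396 CPM in replicate 1 and 0.304 CPM in replicate 2. Intervals cover counting error only. The listed myotube miRNAs took 35.5% (replicate 1) and 42.8% (replicate 2) of these reads, with 6 of 9 genes at 2 CPM or more in both libraries. Mir206, a skeletal muscle miRNA that rises as myoblasts differentiate, stood at 340841 CPM (replicate 1) and 416794 CPM (replicate 2). It made up most of the list's share. By the exact binomial test described below, 3 of the 9 genes were called higher in replicate 1 (30.4% of all genes tested). Another 3 were called higher in replicate 2 (25.3% of all genes tested). Listed markers of blood cells summed to 105 and 183 CPM in replicates 1 and 2 (mostly Mir142, at 89.0 and 178 CPM). The endothelial Mir126a stood at 217 and 42.9 CPM, and epithelial markers summed to 8.71 and 5.47 CPM. Neuronal markers summed to 96.6 and 106 CPM, nearly all from Mir128-1 (96.6 and 106 CPM), the only 1 of 7 at 2 CPM or more in both libraries. Mir124a-1, Mir124a-2, Mir124a-3, Mir9-1, Mir9-2, Mir200a and Mir429 had no read. Multimapping reads are kept apart from the genes, so a count of 0 in a gene with identical copies does not show absence. This limit applies to the Mir124a and Mir9 genes, which are annotated in several copies. It also applies to Mir1a-1 (3.03 and 2.84 CPM) and Mir1a-2 (4.22 and 1.82 CPM) of the myotube list. The same holds there for Mir133a-1 (1.19 and 2.84 CPM) and Mir133a-2 (1.06 and 1.01 CPM). Mir128-1 also has a further annotated copy, Mir128-2, so the neuronal sum is uncertain. Embryonic stem cell markers (6 of 7 matched) were at 0.264 CPM (replicate 1) and 0.405 CPM (replicate 2) in sum, with Mir290a, Mir302a and Mir302b at 0. The part of these cells, and of myoblasts that had not fused, for which no marker was listed, in the values below was not tested.

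All 6 members were present in both libraries at 2 CPM or more, and none had a read on the opposite strand. Their sum was 67644 reads for replicate 1 and 46388 for replicate 2. The cluster's share of miRNA reads was 0.892% in replicate 1 (95% exact Clopper-Pearson interval 0.886% to 0.899%) and 0.470% in replicate 2 (0.466% to 0.475%), or 0.681% ± 0.298 (SD, n = 2). The summed level was 1.86-fold higher in replicate 1 after scaling by trimmed mean of M-values (TMM), and 1.71-fold higher without Mir20a.

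The miR-17 family gave most of the cluster's reads, most of them from Mir17 in both libraries. Mir17 stood at 6624 CPM in replicate 1 and 3652 CPM in replicate 2, ranking 24th and 26th of all annotated miRNA genes, and made up 74.2% (95% interval 73.9% to 74.6%) and 77.7% (77.3% to 78.0%) of the cluster's reads. Its mean was 5138 ± 2102 CPM (SD, n = 2). Mir20a, of the same seed, stood at 923 CPM in replicate 1 and 114 CPM in replicate 2, with a mean of 518 ± 572 CPM (SD, n = 2). The SD of Mir20a exceeded its mean. Mir20a gave 10.3% (10.1% to 10.6%) of the cluster's reads in replicate 1 and 2.42% (2.28% to 2.56%) in replicate 2. Mir17 outnumbered it by 7.18-fold and 32.1-fold in reads.

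Mir18, a member with its own seed, had 973 CPM in replicate 1 and 520 CPM in replicate 2 (mean 747 ± 320.1 CPM, SD, n = 2). Its share of the cluster's reads was nearly the same in both, 10.9% (10.7% to 11.1%) in replicate 1 and 11.1% (10.8% to 11.4%) in replicate 2. Its log2 ratio to Mir17 was -2.79 ± 0.031 (SD, n = 2), the smallest spread of the 5 ratios to Mir17.

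The miR-19 genes were the lowest of the cluster. Replicate 1 held 92 reads of Mir19a (12.1 CPM) and replicate 2 held 159 (16.1 CPM). Mir19b-1 had 66 reads (8.71 CPM) in replicate 1 and 310 (31.4 CPM) in replicate 2. Each library thus placed both below the other 4 members, at 0.0976% to 0.668% of the cluster's reads, but replicate 1 had Mir19a above Mir19b-1 and replicate 2 the reverse. Mir17 exceeded Mir19a by 543-fold in replicate 1 and 226-fold in replicate 2. Mir19a has no identical copy among the annotated hairpins, while the value of Mir19b-1 leaves out reads shared with Mir19b-2.

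Mir92-1 was the most even member. It stood at 382 CPM in replicate 1 and 369 CPM in replicate 2, or 375 ± 9.26 CPM (SD, n = 2). Its share of the cluster's reads was 4.28% (4.13% to 4.44%) in replicate 1 and 7.84% (7.60% to 8.09%) in replicate 2. It therefore lay below Mir20a in replicate 1 and above it in replicate 2. Reads that the shared run assigns to both Mir92-1 and Mir92-2 are not in these values.

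**Figure D1:**
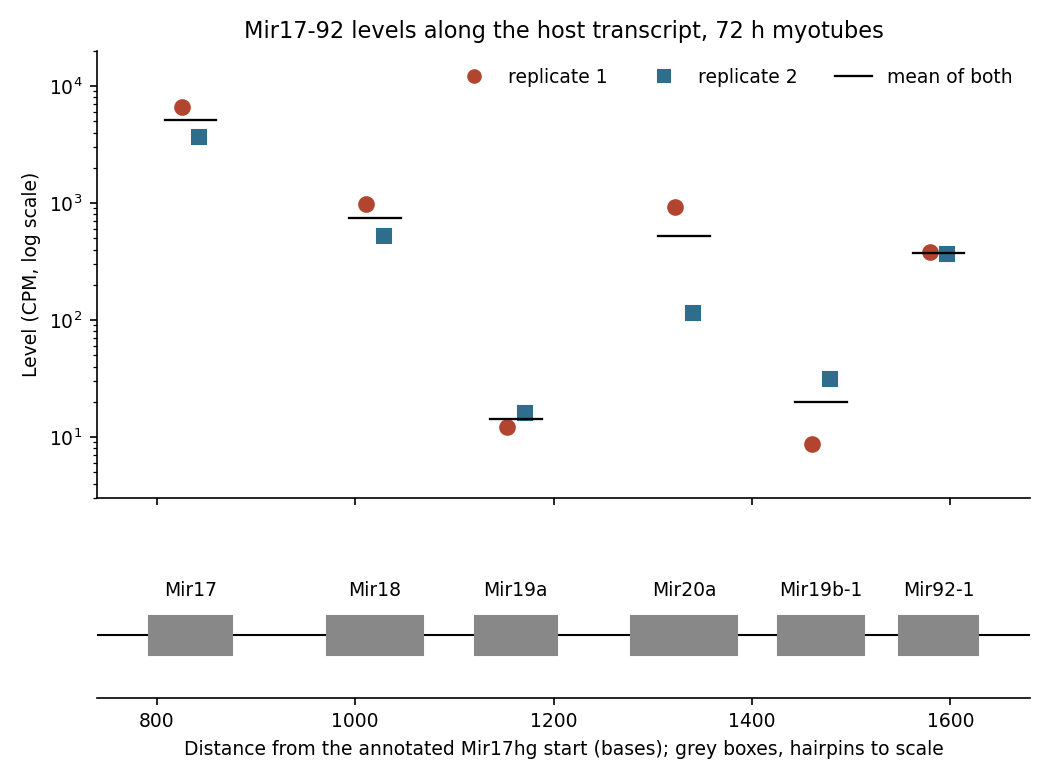
Level of each Mir17-92 member (CPM, log axis) in replicate 1 (circles) and replicate 2 (squares) with the mean (bars), above a map of the hairpins by distance in bases from the annotated Mir17hg start. Mir17 lies highest at 6624 and 3652 CPM, Mir19a and Mir19b-1 lie lowest between 8.71 and 31.4 CPM, and the libraries are furthest apart for Mir20a.

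By mean level the order was Mir17, Mir18, Mir20a, Mir92-1, Mir19b-1, Mir19a. Mir17 was separated from Mir18 and Mir92-1 from Mir19b-1, in that the lower library of the first exceeded the higher library of the next. Mir18 and Mir20a were not separated, nor were Mir20a and Mir92-1, nor Mir19b-1 and Mir19a. The levels did not fall in the order of the transcript. Mir20a and Mir92-1 stood above Mir19a, which lies before them. Mir92-1, the last hairpin, also stood above Mir19b-1, but both counts leave out reads shared with their copies. The part of place in these levels was not tested. The guide arms held 34.8% G and C in Mir19a, 39.1% in Mir20a and Mir19b-1, 43.5% in Mir18, 47.8% in Mir17 and 57.1% in Mir92-1. The part of base composition in these levels was not tested.

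**Figure D2:**
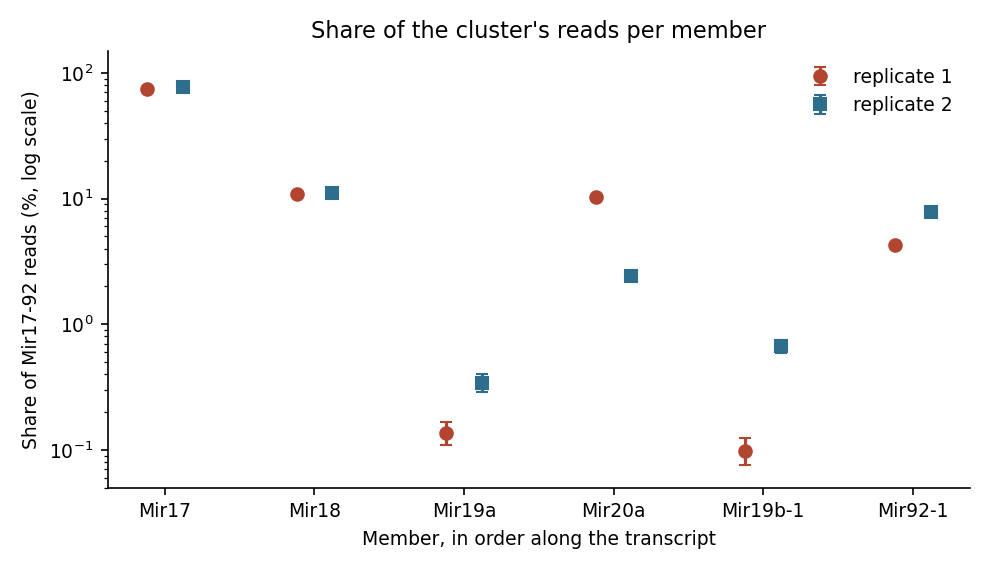
Share of the cluster's reads taken by each member (percent, log axis) in replicate 1 (circles) and replicate 2 (squares), with 95% exact intervals for counting error. Mir17 takes 74.2% and 77.7% and Mir18 10.9% and 11.1%, while the share of Mir20a is 10.3% in replicate 1 and 2.42% in replicate 2.

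The libraries differed at most members, and not in 1 direction. Each gene with 10 or more reads in total was tested with an exact two-sided binomial test of its replicate 1 reads against its replicate 2 reads, with TMM-scaled library sizes and Benjamini-Hochberg adjustment over all 415 genes tested. The test compares these libraries, not conditions, and sees counting error only. At an adjusted p below 0.05, 5 of 6 members were called, against 55.7% of all genes tested. Of these, 3 were higher in replicate 1 (30.4% of all genes) and 2 were higher in replicate 2 (25.3% of all genes). Their shares rest on 6 genes, and calls become more frequent with read depth. With a minimum of 100 reads, which all 6 members passed, 205 of 240 genes tested were called, and again 5 members. The members' share of calls was thus near that of all genes at such depth. The median log2 ratio of replicate 1 to replicate 2 was 0.42 over the 6 members and 0.016 over all genes tested.

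Mir20a was 7.94-fold higher in replicate 1 (log2 2.99, 95% exact interval 2.90 to 3.08). Its p was below the range of the software. Only 3 of the 415 tested genes had a higher ratio toward replicate 1. Mir17 was 1.78-fold higher in replicate 1 (log2 0.83, interval 0.81 to 0.85), with a p below the same range. Mir18 was 1.83-fold higher (log2 0.87, interval 0.82 to 0.92; adjusted p = 4.37e-247). Mir17 and Mir18 thus moved by closely similar amounts, and their intervals overlap.

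The miR-19 genes went the other way. Mir19b-1 was 3.66-fold higher in replicate 2 (log2 -1.87, interval -2.29 to -1.49; adjusted p = 8.45e-27, exact binomial test). Mir19a was 1.35-fold higher in replicate 2 (log2 -0.44, interval -0.83 to -0.060; adjusted p = 0.0395, exact binomial test). That call was lost with library totals in place of TMM (adjusted p = 0.0542) and when genes with 1 or more reads were tested (adjusted p = 0.0660), within a range of 0.0245 to 0.0660 over 5 alternatives. Mir92-1 was not called (log2 0.020, interval -0.051 to 0.091; adjusted p = 0.680, exact binomial test).

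Because the members come from 1 primary transcript, their ratios to Mir17 were also compared between the libraries, which needs no scaling of library size. With Fisher's exact test of each gene against Mir17, adjusted over the other 414 tested genes, 4 of 5 members were called, against 69.6% of all genes. With a minimum of 100 reads, 218 of 239 genes were called, and again 4 of 5 members. The members' share of calls was thus not above that of all genes at such depth. Mir20a (p below the range of the software), Mir92-1 (adjusted p = 2.15e-104), Mir19b-1 (adjusted p = 3.77e-58) and Mir19a (adjusted p = 2.12e-11) were the called members. Mir18 was not (adjusted p = 0.152). Relative to Mir17, Mir20a was higher in replicate 1, while Mir92-1, Mir19a and Mir19b-1 were higher in replicate 2. The counts of Mir92-1 and Mir19b-1 leave out reads shared with their copies. These tests also take counting error only. With 2 libraries, a two-sided exact paired permutation test cannot go below 0.5, so none was made.

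The spread between the libraries over all genes gives the replicate error. Over the 274 genes at 2 CPM or more in both libraries, the SD of the log2 ratio was 0.93, and edgeR put the biological coefficient of variation at 0.435. Mir17, Mir18, Mir19a and Mir92-1 lay within 1 such SD of 0, and Mir20a and Mir19b-1 did not. A ratio of 2-fold or more in either direction was seen in 2 of 6 members and in 28% of all genes tested. Over the same 274 genes, Spearman's rho between the G and C content of the hairpin and the log2 ratio was -0.288, a description across genes that share the same libraries. Hairpin G and C content among the members ran from 43.7% in Mir19b-1 to 47.5% in Mir92-1, and was 45.8% in Mir20a and 45.2% in Mir17. That of the guide arms ran from 34.8% in Mir19a to 57.1% in Mir92-1. The part of hairpin or guide arm composition in the members' library ratios was not tested.

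**Figure D3:**
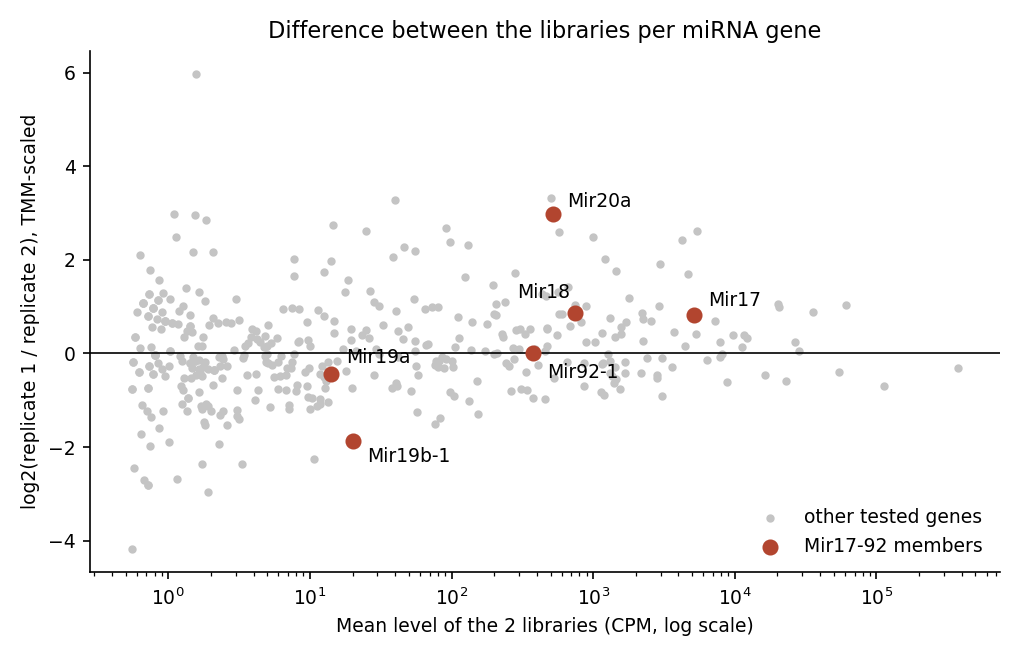
Log2 ratio of replicate 1 to replicate 2 (TMM-scaled) against mean level (CPM, log axis) for the 415 tested miRNA genes, with the 6 Mir17-92 members in red. Mir20a lies at 2.99 and Mir19b-1 at -1.87, Mir17 and Mir18 lie close together at 0.83 and 0.87, and Mir92-1 lies at 0.020.

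The spread of library ratios within Mir17-92 was set beside that of other genomic clusters, defined as runs of miRNA genes on 1 strand with gaps of at most 10000 bases and at least 3 genes at 2 CPM or more in both libraries. There were 10 such clusters. The members of Mir17-92 spanned 4.86 log2 units in their library ratio, the widest of the 10, against a median of 1.62 and a highest value of 2.58 over the other 9. Mir17-92 still had the widest span without Mir20a (2.75) and without Mir19b-1 and Mir92-1 (3.42), but without both Mir20a and Mir19b-1 its span was 1.31 and ranked 7th. In level, the members spanned 8.51 log2 units, second to the Mir322 cluster (10.1), against a median of 3.37 over the other 9 clusters. Clusters with more detected genes can span more, and the detected genes numbered 6 here and 3 to 7 in the others. No test was made of these spans.

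**Figure D4:**
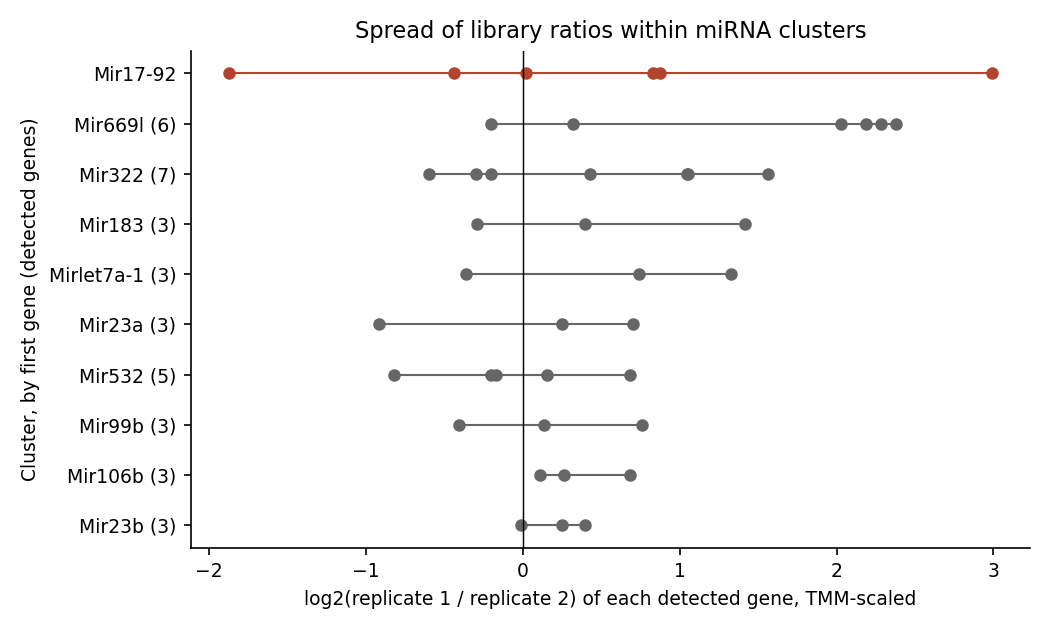
Log2 ratio of replicate 1 to replicate 2 (TMM-scaled) of every detected gene (points) in the 10 genomic miRNA clusters with at least 3 detected genes, each joined by a line. Mir17-92, at the top, spans 4.86 log2 units, and the widest of the others spans 2.58.

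The mouse genome holds 2 paralog clusters. Mir106b-25 (Mir106b, Mir93, Mir25), which has genes of the miR-17 and miR-92 families but none with the miR-18 or miR-19 seed, lies in an intron of the replication gene Mcm7 on chromosome 5, and Mir106a-363 (Mir106a, Mir18b, Mir20b, Mir19b-2, Mir92-2, Mir363) on chromosome X. In replicate 1 Mir17-92 summed to 8922 CPM, against 4871 CPM for Mir106b-25, and in replicate 2 to 4702 CPM, against 3568 CPM. Mir17-92 was thus above Mir106b-25 in both libraries, by 1.83-fold in replicate 1 and 1.32-fold in replicate 2 (log2 0.64 ± 0.34, SD, n = 2). Mir106a-363 summed to 8.97 and 8.41 CPM, so Mir17-92 exceeded it by 988-fold in replicate 1 and 556-fold in replicate 2 (log2 9.53 ± 0.59, SD, n = 2). The sums for Mir17-92 and Mir106a-363 leave out reads that fit both copies of miR-19b or miR-92a.

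Counterpart genes showed where the paralogs differed. Mir17 had 3863 times the reads of Mir106a in replicate 1 and 2402 times in replicate 2, although their guide arms differ at 1 base. Mir20b, the counterpart of Mir20a, had no read in either library, so Mir20a was at least 2332-fold higher in replicate 1 and at least 374-fold higher in replicate 2, against a floor of 3 reads per library. Mir18b had 1 and 2 reads, and the ratio of Mir18 to it was 7377 (exact interval 1324 to 291415) in replicate 1 and 2567 (710 to 21198) in replicate 2. Mir363 had no read. Of the copies with the same guide arm, Mir92-1 had 61.6 times the reads of Mir92-2 in replicate 1 (interval 46.2 to 84.0) and 93.3 times in replicate 2 (68.1 to 131). Mir19b-1 had 9.43 times the reads of Mir19b-2 in replicate 1 (4.33 to 24.4) and 11.5 times in replicate 2 (7.74 to 17.7). These ratios rest on reads assigned to 1 gene and are no measure of the shared guide arm's source.

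Mir19b-2 also went the same way between the libraries as Mir19b-1, with 7 reads in replicate 1 and 27 in replicate 2 (log2 -1.52, interval -3.04 to -0.36, adjusted p = 0.0109, exact binomial test). The counts of both genes leave out reads that fit both. All 3 genes of Mir106b-25 were called and higher in replicate 1, with Mir106b at 1.60-fold, Mir93 at 1.20-fold and Mir25 at 1.08-fold. Their log2 ratios spanned 0.57 units.

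**Figure D5:**
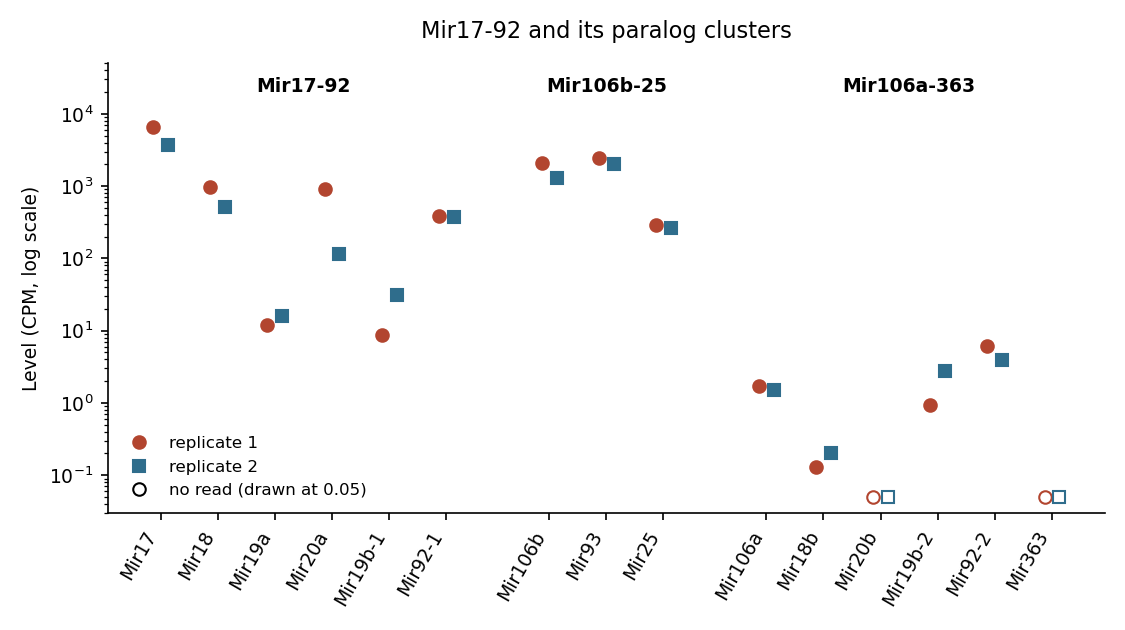
Level (CPM, log axis) of each gene of Mir17-92 and its paralog clusters Mir106b-25 and Mir106a-363 in replicate 1 (circles) and replicate 2 (squares), with open symbols for genes without a read. Mir17-92 and Mir106b-25 overlap in level, and the genes of Mir106a-363 lie between 0 and 6.20 CPM.

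Grouped by seed across all annotated genes with a mature sequence in the RefSeq table, the cluster's part differed by family. The seed AAAGUGC is held by 7 genes, and their summed level was 12133 CPM (replicate 1) and 7075 CPM (replicate 2). Mir17 and Mir20a gave 62.2% of it in replicate 1 and 53.2% in replicate 2 (57.7% ± 6.35, SD, n = 2). Most of the rest came from Mir93, at 2480 and 2022 CPM, and Mir106b, at 2105 and 1285 CPM, and Mir6383 of this family had no read. In the family with the seed AUUGCAC, also of 7 genes, Mir92-1 gave 52.8% in replicate 1 and 57.3% in replicate 2 (55.0% ± 3.12, SD, n = 2). Mir25 followed at 286 and 260.1 CPM, Mir32 stood at 43.1 and 6.79 CPM, Mir92b at 5.01 and 4.46 CPM, and Mir367 had no read. Mir18 gave 99.99% and 99.96% of the reads of genes with the seed AAGGUGC. Mir19a with Mir19b-1 gave 95.8% and 94.6% of the reads of genes with the seed GUGCAAA. Counts are per hairpin, and reads that fit both copies of miR-19b or miR-92a are left out. The parts given for the seeds GUGCAAA and AUUGCAC are therefore uncertain.

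Other miRNAs linked to cell cycle control, listed by name, were set beside the cluster. Of the 16, 14 were tested, and all 14 were called and higher in replicate 1, against 30.4% of all genes in that direction. All 14 had 100 or more reads in total, and with that minimum 205 of 240 genes tested were called in either direction. Their median log2 ratio was 1.18, against 0.016 over all genes tested and 0.42 over the 6 members. The calls take counting error only: 10 genes reached 2-fold (28% of all genes tested, either direction), but Mir34b was called at 1.06-fold. Some listed genes are cluster neighbours, such as Mir322 and Mir503, so they are not independent. The list was chosen with earlier results of these data known. Mir322, which is induced as myoblasts leave the cell cycle, was the most abundant at 27578 CPM in replicate 1 and 13017 CPM in replicate 2. Mir34c, of a family induced by p53, stood at 7130 and 1298 CPM, and Mir221, which represses the cell cycle inhibitor Cdkn1b, at 3915 and 1894 CPM. Mir17, Mir18 and Mir20a moved in the direction of this list, and Mir19a and Mir19b-1 in the other. Markers of other cell types moved in both directions by the same test. The endothelial Mir126a was higher in replicate 1 by 4.95-fold, and the red blood cell miRNAs Mir144 by 4.50-fold and Mir451a by 3.16-fold. The epithelial Mir200c was higher in replicate 1 by 7.22-fold, the only 1 called of 3 epithelial markers tested. Of the others, Mir141 had 8 reads in replicate 1 and 15 in replicate 2, and Mir205 had 33 in each. The white blood cell miRNAs Mir142 (log2 -1.03) and Mir150 (log2 -2.82) were higher in replicate 2. Mir200c, Mir144, Mir451a and Mir150 had at most 90 reads in a library. The part of these cell types in the list's and the members' ratios was not tested.

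For each member, the gene outside the cluster with the most similar levels was found as the smallest Euclidean distance in log2(CPM + 1) over the 2 libraries, among 2196 genes. The nearest gene to Mir17 was Mir29a, at 6134 CPM in replicate 1 and 4489 CPM in replicate 2. Mir872 was nearest to Mir18 (1016 and 482 CPM), and Mir34b was nearest to Mir92-1 (402 and 369.6 CPM). Mir107 was nearest to Mir20a, at 911 CPM in replicate 1 and 88.8 CPM in replicate 2. Mir8112 was nearest to Mir19a (12.7 and 14.1 CPM) and Gm49347 to Mir19b-1 (8.84 and 17.9 CPM). With only 2 libraries this likeness is one of level and of library ratio.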

How the data were processed

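Small RNA was sequenced from 72 h C2C12 myotubes in 2 biological replicates, grouped as the labels give them. The authors deposited whole-number read counts for each miRNA gene, on mm10 with annotation M21, per the file descriptions supplied with them. No aligner, counter or filter is named in the sources used here. The own-strand count column was used. Of all reads, 22.7% and 23.1% were unmapped, 22.0% and 17.9% multimapping, and 5.88% and 5.57% outside the genes, in replicates 1 and 2. These lines at the head of each table stayed out of totals and tests.

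Gene names, positions and hairpins came from GENCODE M21, which matched all 2202 identifiers. Mature sequences came from RefSeq (GRCm38.p6), which held 1018 of the gene symbols. Families include a gene if either annotated arm has the seed. Member guide arms were named from textbook knowledge.

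CPM and exact intervals were computed for all genes, and exact binomial and Fisher's exact tests (scipy 1.17.1, Python 3.11.15) for genes with 10 or more reads, with TMM factors from edgeR 4.0.16 and 0.5 reads added in log2 ratios. A quasi-likelihood fit was left out because 1 group offers nothing to contrast. Both tests were tested on simulated data. Alternatives were DESeq2 1.42.0 size factors, library totals, other read and detection minimums, strand-ignored counts, other totals, other added reads, a shorter cluster gap and each library left out.

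The members, the lists and the rule for named genes were chosen with earlier results of these data known. The rule names the 6 members, the paralog clusters, genes that share a seed, the gene nearest in level to each member, the 3 most abundant cell-cycle-linked genes, and Mir206. Mir126a, Mir142, Mir144, Mir150, Mir200c and Mir451a, the listed markers of other cell types that are named with a library ratio, were chosen after their values were seen. Mir1a-1, Mir1a-2, Mir128-1, Mir128-2, Mir133a-1, Mir133a-2, Mir141, Mir205 and Mir503 are also named outside the rule, to show limits of the lists. The labels place the libraries in separate biosamples of 1 line. The p-values set the difference between these 2 libraries against counting error only, and take in no spread between replicates.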

Additional observations from a re-analysis of the deposited data

Results flagged for a closer look

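The series has 1 group of 2 libraries, which is below the number of samples needed to look for an outlier, and there is no second group. Data outside the gene counts were far above 3 reads, the limit for a count of 0. Replicate 1 had 3378438 multimapping reads and replicate 2 had 3295854, 49.9 and 71.0 times the reads of the whole Mir17-92 cluster. How many of them came from miR-19b or miR-92a, whose guide arms have identical copies, was not tested. Reads mapped outside miRNA genes numbered 903243 in replicate 1 and 1027420 in replicate 2.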

How the results depend on the processing

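The cluster's share of miRNA reads, 0.681%, was 0.346% with all reads as the total and 1.08% with Mir206 left out of the total. Its value was 0.470% without replicate 1 and 0.892% without replicate 2. The number of members that differed between the libraries was 5 with DESeq2 size factors, with strand-ignored counts and with a minimum of 100 reads, and 4 with library totals or a minimum of 1 read. Mir92-1, which was not called, had a log2 ratio of -0.0076 with DESeq2 size factors, against 0.020 with TMM. By span of library ratios, the cluster ranked 7th of 10 without both Mir20a and Mir19b-1. The 3 alternatives that leave out members were chosen after seeing the data. Scaling moved the median log2 ratio of all genes tested by less than 0.1. With strand ignored, the level of every member rose (Mir17 to 5820 CPM against 5138 CPM), while its share of the cluster's reads stayed the same. Under that setting only 1 result moved by more than its SD, the level of Mir92-1, to 429 CPM against 375 CPM, where the SD was 9.26 CPM. By the same measure 5 results moved with all reads as the total, and 5 with Mir206 left out of the total. No paired analysis was possible because there is 1 group. No test can be made with 1 library. Depth limits Mir19a, Mir19b-1 and the genes of Mir106a-363, which had few reads.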
